A study of Mus musculus with 8 samples.

Results

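The mRNA levels of 9 genes of monocyte attraction were followed in mouse heart, liver and kidney grafts and in the blood of their recipients. The 7 ligands were Ccl2, Ccl6, Ccl7, Ccl8, Ccl9, Ccl12 and Ccl24, and the 2 receptors were Ccr1 and Ccr2. They are 9 of the 24405 genes that the 8 libraries list. The genes were chosen by name with their earlier levels in these libraries known, so every level below is a description and no level was tested. Cells were captured by Microwell-seq, in which barcoded beads in a microwell array tag each mRNA molecule with a unique molecular identifier (UMI). Each library held 10000 barcodes and stood for 1 condition. Blood mononuclear cells (PBMC) came from recipients of a heart, a liver or a kidney graft. Infiltrating lymphocytes (TIL) came from the graft of each organ, and cells of the dissociated organ (PC) from liver and kidney.

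All libraries were taken on day 7 after transplantation. Heart and kidney were placed heterotopically and the liver orthotopically, and no group received immunosuppression. Per the labels every library was from BALB/c mice, male and 8 weeks old, while the study's methods give BALB/c donors and C57BL/6J recipients, so that graft libraries can hold cells of both strains. The methods give 2 recipients per organ and do not state whether they were pooled. Graft and blood samples were collected from the same recipients, so libraries of an organ can share animals. No ungrafted organ was analysed here. Grafts were dissociated with type II collagenase and TIL were taken by density gradient, so TIL and PC differ in preparation as well as in compartment. Organ genes ran against 2 labels. The library labelled heart TIL held 1056 UMIs of Alb and 1026 of Cd5l, made by hepatocytes and by Kupffer cells, while the library labelled liver TIL held 0 and 1 and carried 128 UMIs of Myl7, an atrial muscle gene. Both are called by their labels throughout.

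CC chemokines are small secreted proteins that direct leukocyte migration through G protein-coupled receptors. Ccl2, Ccl7 and Ccl12 act on Ccr2, which brings inflammatory monocytes out of the bone marrow and into tissue. Mouse Ccl8 acts mainly on Ccr8, Ccl6 and Ccl9 act on Ccr1, and Ccl24 acts on Ccr3 of eosinophils. In grafts, monocytes drawn from recipient blood become macrophages beside those of the donor, and in liver the resident macrophages are Kupffer cells.

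The genes lie in 4 places of the mouse genome (GRCm38, GENCODE vM21). Ccl2 (chromosome 11, 82035571 to 82037453), Ccl7 (82045712 to 82047525), Ccl12 (82101845 to 82103400) and Ccl8 (82115185 to 82116799) form a run of 81.2 kb on the plus strand of chromosome 11. Ccl9 (83572919 to 83578636) and Ccl6 (83587882 to 83593087) lie on the minus strand of the same chromosome, 1456119 bases from Ccl8. Ccr1 (123962124 to 123968692) and Ccr2 (124101950 to 124113557) share chromosome 9, and Ccl24 (135569937 to 135573049) is on chromosome 5. The coding sequences of Ccl7, Ccl8 and Ccl12 were 63.2% to 64.7% identical in pairs, and those of Ccl6 and Ccl9 64.6%. Of the 50-base words in their transcripts, those of 7 members occurred in no transcript of another gene, and 1.97% of the words of Ccl9 and 1.91% of those of Ccr2 did, none in another member. Reads with several alignments had been removed before counting.

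Ccl8 and Ccl12 had like patterns over the cell classes below, and the windows around their starts are printed for that reason, beside those of the neighbours Ccl9 and Ccl6, whose levels followed another course. Each window runs from 250 bases before to 50 after the start (RefSeq, GRCm38.p6, own strand, 5′ to 3′), and capitals mark every motif match. 6 of the 9 members had a window in the table, and Ccl2, Ccl7 and Ccl24 had none.
Ccl8, chr11:82114935-82115234, plus strand: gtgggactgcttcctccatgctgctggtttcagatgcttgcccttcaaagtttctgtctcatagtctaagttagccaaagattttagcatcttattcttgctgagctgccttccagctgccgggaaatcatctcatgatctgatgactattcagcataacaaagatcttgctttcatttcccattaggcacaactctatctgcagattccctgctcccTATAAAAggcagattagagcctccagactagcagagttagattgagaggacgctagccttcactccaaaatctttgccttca
Ccl12, chr11:82101595-82101894, plus strand: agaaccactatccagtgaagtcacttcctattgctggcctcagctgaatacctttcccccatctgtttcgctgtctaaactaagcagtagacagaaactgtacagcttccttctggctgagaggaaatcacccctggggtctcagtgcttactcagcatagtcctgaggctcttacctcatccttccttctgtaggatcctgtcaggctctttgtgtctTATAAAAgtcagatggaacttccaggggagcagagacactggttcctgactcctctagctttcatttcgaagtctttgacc
Ccl9, chr11:83578587-83578886, minus strand: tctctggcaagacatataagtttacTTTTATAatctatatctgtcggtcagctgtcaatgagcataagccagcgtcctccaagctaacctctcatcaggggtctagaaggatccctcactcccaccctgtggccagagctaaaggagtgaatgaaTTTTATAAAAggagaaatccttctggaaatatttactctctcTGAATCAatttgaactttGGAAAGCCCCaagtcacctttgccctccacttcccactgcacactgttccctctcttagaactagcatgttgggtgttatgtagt
Ccl6, chr11:83593038-83593337, minus strand: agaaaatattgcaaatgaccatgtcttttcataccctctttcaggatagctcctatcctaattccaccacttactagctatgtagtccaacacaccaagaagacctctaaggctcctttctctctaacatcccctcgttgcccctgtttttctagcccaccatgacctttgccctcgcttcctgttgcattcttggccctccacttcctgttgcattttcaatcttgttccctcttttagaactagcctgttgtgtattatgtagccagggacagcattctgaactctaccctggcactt

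Both strands were searched for a TATA box (TATAAAA), AP-1 (TGANTCA), the interferon-gamma element GAS (TTCNNNGAA), the interferon-stimulated element ISRE (GAAA, any 2 bases, GAAA) and the NF-kB consensus. Ccl8 held TATAAAA at -32 to -26 from its start and Ccl12 at -31 to -25, and neither window held another match. TATAAAA occurred in 5.48% of 32851 windows of this length. Ccl9 held 3 TATA matches, 2 of which overlap, 1 AP-1 and 1 NF-kB match, where 7.81% and 8.46% of all windows hold those 2. The window of Ccl6 held none of the 5 motifs. GAS occurred in 8.30% and ISRE in 3.44% of windows, and in none of the 6 members with a window. A match describes letters, not binding.

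Cells were selected on marker UMIs from the 47541 of 80000 barcodes that passed the study's filter, a floor of 500 UMIs with mitochondrial UMIs capped at 10%. Macrophages and monocytes were taken as cells with a UMI of Csf1r, the receptor for macrophage colony-stimulating factor. They were called C1q-high at 5 or more UMIs of C1qa, C1qb and C1qc together, the complement genes of mature tissue macrophages, and C1q-low below that. There were 6705 Csf1r-positive cells in tissue, of which 3344 were C1q-high, and 1757 in blood, of which 8 were. They numbered 1626 in the library labelled liver TIL, 1721 in that labelled heart TIL, 109 in kidney TIL, 3165 in liver PC and 84 in kidney PC. The kidney values thus rest on few cells, 22 and 20 of them C1q-high. Levels are CPM, counts scaled to 1000000 UMIs summed over the cells of a class in a library, and exact 95% Poisson intervals stand in parentheses. With 1 library per condition the intervals hold counting error and nothing of the spread between animals, and no p-value was computed.

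The gated classes were mixed, and this touches every level below. Of Csf1r-positive cells in tissue, 27.7% in the library labelled liver TIL to 53.9% in liver PC also carried 2 or more UMIs of the T-cell genes Cd3d, Cd3e and Cd3g. Of those in blood, 97.6% in heart, 78.6% in liver and 36.7% in kidney PBMC carried at least 2 of 6 neutrophil genes. The 12 macrophage markers, gate genes included, summed to 6287 to 16682 CPM in tissue and 1673 to 2577 CPM in blood, where the 8 neutrophil markers summed to 43985 to 181710 CPM. The 10 monocyte markers summed to 14139.7 to 22626 CPM in blood, all 10 of them with UMIs in each library. T cells, with 2 or more Cd3 UMIs and no Csf1r, serve below as the class that should lack the ligands. All 12 macrophage markers and all 8 neutrophil markers had UMIs in each blood library. Pairs of libraries shared 123 to 617 barcodes, and without barcodes seen in more than 1 library 284 of 297 levels of the members stayed within their intervals. Stricter gates moved more of them, 140 of 261 levels leaving their interval in cells with no T-cell UMI and 80 of 189 where cells of a second lineage were left out.

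In Csf1r-positive cells, Ccl8, Ccl12 and Ccl7 were present in every tissue library and near 0 in every blood library. Ccl8, a chemokine of monocytes and T helper 2 cells, stood at 2594 (2518–2672) CPM in the library labelled liver TIL. It stood at 1332 (1092–1609.7) CPM in kidney TIL and 725 (516–991) CPM in kidney PC. It stood at 164 (146–184) CPM in the library labelled heart TIL and 114 (107–122) CPM in liver PC. No neighbours in this order had overlapping intervals, and the 2 libraries that held Kupffer genes were lowest. In cells with no T-cell UMI the order turned at both ends, with intervals apart. Kidney TIL, with 16 cells, stood at 5311 (3942–7001) CPM and the library labelled liver TIL at 3157 (2967–3357). Liver PC was then at 207 (173–245) CPM and the library labelled heart TIL at 71.4 (38.0–122). Blood Csf1r-positive cells held 0 UMIs of Ccl8, which allows up to 3.69 CPM in heart, 3.31 CPM in liver and 65.3 CPM in kidney PBMC.

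Ccl12, a mouse ligand of Ccr2, followed the order of Ccl8 in all Csf1r-positive cells. It was 552 (517–588) CPM in the library labelled liver TIL, 336 (222–489) in kidney TIL, 316 (184–506) in kidney PC, 131 (115–148) in the library labelled heart TIL and 72.5 (66.4–79.0) in liver PC. The intervals of both kidney libraries overlapped each other, and those of the rest were apart. In blood 2, 3 and 0 UMIs were counted in heart, liver and kidney PBMC. Ccl7, which also acts on Ccr2, was 482 (449–516) CPM in the library labelled liver TIL and 43.0 (38.3–48.0) CPM in liver PC. Between them lay kidney PC with 5 UMIs, the library labelled heart TIL at 88.1 (75.1–103) CPM and kidney TIL with 4 UMIs, whose intervals overlapped one another, and those of both kidney libraries also reached the liver PC value. Blood held 1 UMI of Ccl7 in all, in liver PBMC. The limit of 65.3 CPM in kidney PBMC lies above the Ccl7 levels of kidney TIL and liver PC, so that these differences were not detectable at that depth.

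**Figure D1:**
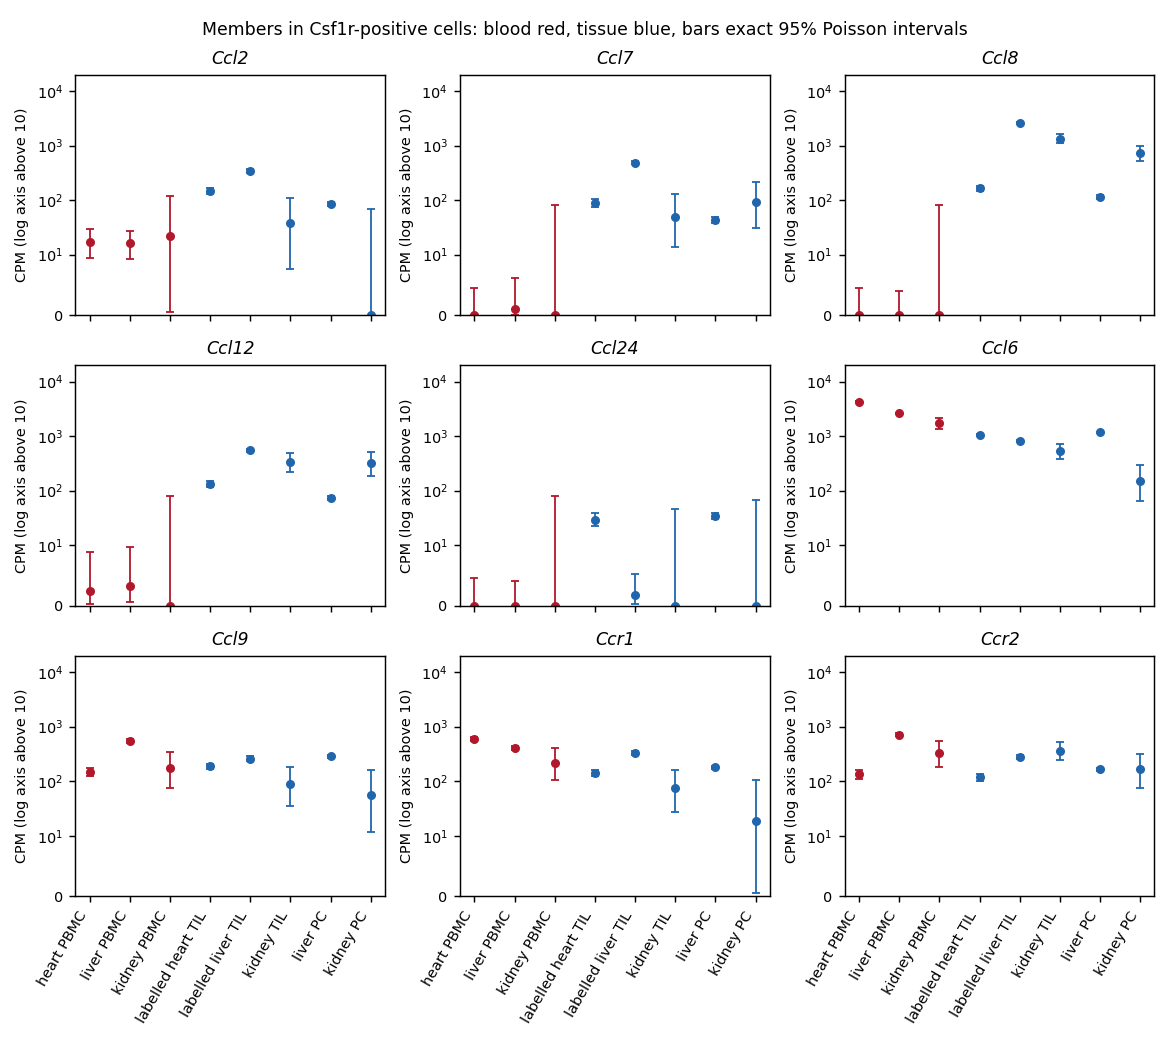
CPM of each member in Csf1r-positive cells (vertical axis, logarithmic above 10 CPM) of the 8 libraries, blood in red and tissue in blue, with exact 95% Poisson intervals as bars. The points of Ccl7, Ccl8 and Ccl12 lie above blood in all 5 tissue libraries and that of Ccl6 below it in all 5, while the bars of kidney PBMC, with few UMIs, reach into some tissue values.

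Ccl2, the main Ccr2 ligand, was also higher in most tissue libraries but was not absent from blood. It was 335 (308–364) CPM in the library labelled liver TIL, 148 (131–167) in that labelled heart TIL and 85.8 (79.2–92.9) in liver PC, 3 values with intervals apart. In cells with no T-cell UMI Ccl2 was 159 (130–194) CPM in liver PC and 126 (80.0–189) in the library labelled heart TIL, with overlapping intervals. In blood it was 17.2 (9.42–28.9) CPM in heart and 16.5 (9.25–27.3) CPM in liver, and 1 UMI was counted in kidney PBMC. Kidney TIL held 3 UMIs and kidney PC 0, which allows up to 55.8 CPM, so a difference of kidney tissue from blood was not detectable at this depth. Ccl24, an eosinophil attractant, was found in 2 libraries mainly, at 34.4 (30.2–38.9) CPM in liver PC and 29.5 (22.3–38.5) CPM in the library labelled heart TIL, whose intervals overlapped. The library labelled liver TIL held 3 UMIs in these cells, and the other 5 libraries 0.

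Ccl6 ran the other way. In blood it stood at 4181 (4042–4324) CPM for heart, 2593 (2489–2699.6) for liver and 1719 (1361–2142) for kidney PBMC. In tissue it was 1166 (1141–1192) CPM in liver PC, 1065 (1019–1113) in the library labelled heart TIL, 814 (771–858) in the one labelled liver TIL, 535 (387–721) in kidney TIL and 149 (64.2–293) in kidney PC, each neighbour apart. Ccl9, its neighbour in the genome, was 539.9 (493–589.9) CPM in liver PBMC and 283 (271–296) in liver PC, against 148 (122–177) in heart and 174 (75.1–343) in kidney PBMC. The library labelled liver TIL held 259 (236–285) CPM and that labelled heart TIL 189.6 (170.4–210.5), while kidney TIL held 7 UMIs and kidney PC 3. The tissue and blood ranges of Ccl9 overlapped, as did those of Ccl2, Ccl24, Ccr1 and Ccr2. Counted over genes with at least 10 UMIs in the 8 sums, all 5 tissue libraries lay above all 3 blood libraries for 3 of the 9 members (Ccl7, Ccl8 and Ccl12) and for 9.22% of all 12888 genes. They lay below for 1 member (Ccl6) and for 4.21% of genes. With cells of a second lineage left out, neutrophil genes included, the counts were again 3 and 1, from 16 cells in heart, 177 in liver and 24 in kidney PBMC. Ccl6 was then 1436 (969–2050.3) CPM in kidney PBMC and 1409 (1363–1456) in liver PC, whose intervals overlapped. A floor of 1000 UMIs left 0 members above and 0 below, and 2 UMIs of Csf1r left 2 above and 0 below. Without T-cell UMIs 2 members remained above, Ccl7 having 0 UMIs in both kidney graft libraries and 1 in liver PBMC, and 1 below. The percentages are background for all Csf1r-positive cells. Shares of all genes under the alternatives are not given here, so nothing is read from those counts. The members were chosen with their levels known.

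With all Csf1r-positive cells, the receptors differed between blood libraries. Ccr1, the receptor of Ccl6 and Ccl9 on monocytes and neutrophils, was 602 (549–657) CPM in heart, 405 (365–449) in liver and 218 (104–400.1) in kidney PBMC. Its intervals overlapped between liver and kidney PBMC. In tissue it was 325 (299–354) CPM in the library labelled liver TIL, 179 (169–189) in liver PC and 142 (125–160.0) in the library labelled heart TIL, with 6 and 1 UMIs in kidney TIL and PC. Ccr2, the receptor of classical monocytes, was 713 (659–770.0) CPM in liver PBMC, the highest of the 8 libraries, and 135 (111–163) in heart PBMC. It was 361 (242–518) CPM in kidney TIL, 326 (183–538) in kidney PBMC, 275 (251–302) in the library labelled liver TIL, 167 (76.5–318) in kidney PC, 166 (157–176) in liver PC and 117 (102–134) in the library labelled heart TIL. Kidney TIL, kidney PBMC and the library labelled liver TIL had overlapping intervals, and that of liver PBMC was above them all. Kidney PC, with 9 UMIs, overlapped every library but liver PBMC. With cells of a second lineage left out, Ccr1 was 360 (98.2–923) CPM in heart, 267 (196–357) in liver and 47.9 (1.21–267) in kidney PBMC. These intervals overlapped one another, so the difference of Ccr1 was not seen in these cells. Ccr2 was then 901 (765–1055) CPM in liver and 431 (197–818) in kidney PBMC, also overlapping, and heart PBMC held 1 UMI.

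The C1q split separated the ligands. Ccl8 was higher in C1q-high than in C1q-low cells of all 5 tissue libraries, with intervals apart in each. In cells with no T-cell UMI this was not seen in the library labelled heart TIL, at 66.0 (26.5–136) against 78.9 (28.9–172) CPM. Those 2 values rest on 7 and 6 UMIs. With all Csf1r-positive cells Ccl8 was 3612 (3496–3732) against 1076 (999–1157) CPM in the library labelled liver TIL. It was 231 (202–263) against 92.6 (73.8–115) in that labelled heart TIL and 157 (145–169) against 39.5 (32.2–47.9) in liver PC. In kidney TIL it was 6376 (5187–7754) against 108 (43.5–223) CPM, 100 UMIs against 7, and in kidney PC 2356 (1589.9–3364) against 219 (100.3–416). With 10 CPM added to both, the ratios were 3.34, 2.35, 3.37, 54.0 and 10.3 in the same order. Ccl12 was likewise higher, with ratios of 3.44 in the library labelled liver TIL, 2.40 in that labelled heart TIL, 3.10 in liver PC, 2.76 in kidney TIL and 3.5 in kidney PC. Its intervals overlapped in both kidney libraries and were apart in the other 3.

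Ccl7 and Ccl2 had lower ratios than Ccl8 and Ccl12 in both libraries labelled liver TIL and heart TIL and in liver PC. Ccl7 was 597 (550.1–646) CPM in C1q-high and 309.9 (269–355) in C1q-low cells of the library labelled liver TIL, a ratio of 1.90. In cells with no T-cell UMI it was 795 (681–923) against 206 (129–312) CPM. Ccl8 was 4148 (3881–4427) against 1142 (948–1363) there, so a lower ratio of Ccl7 than of Ccl8 was not seen. Ccl12 was 1085 (951–1233) against 187 (114–289) CPM there, and the ratio of Ccl7 was still lower than that of Ccl12. With all Csf1r-positive cells the ratio of Ccl7 was 1.60 in the library labelled heart TIL and 2.48 in liver PC, also with intervals apart. Without T-cell UMIs no difference of Ccl7 was seen in the library labelled heart TIL, at 47.1 (15.3–110.0) against 65.7 (21.3–153) CPM, 5 UMIs in each. Ccl2 had ratios of 1.37, 1.54 and 1.52 there, with intervals apart. In cells of liver PC with no T-cell UMI the gaps were wider, 202 (160.2–251) against 86.2 (52.7–133) CPM for Ccl2 and 311 (259–371) against 25.9 (9.49–56.3) for Ccl8. In the library labelled heart TIL Ccl2 was 160 (93.3–257) against 78.9 (28.9–172) CPM with this gate, and the intervals overlapped. Ccl24 was 48.2 (42.1–55.0) against 9.96 (6.51–14.6) CPM in liver PC and 43.5 (31.4–58.8) against 14.5 (7.72–24.8) in the library labelled heart TIL. Without T-cell UMIs this difference was lost in the library labelled heart TIL, at 56.6 (20.8–123) against 52.6 (14.3–135) CPM.

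Ccl9 did not separate, with ratios of 1.04, 1.05 and 1.12 in the libraries labelled heart TIL and liver TIL and in liver PC and overlapping intervals in each. Ccl6 had ratios of 1.39, 1.16 and 1.32 there, and only the second had overlapping intervals. Ccr1 had 1.20, 0.97 and 1.31, and only the last had intervals apart. Without T-cell UMIs Ccr1 in liver PC was 217 (174–267) against 254 (194–328) CPM, with overlapping intervals, so it was no longer seen higher. With all Csf1r-positive cells Ccr2 was the member whose ratio was under 1 in all 3 libraries. It was 138 (127–149) against 215 (198–234) CPM in liver PC, a ratio of 0.66 with intervals apart. Its ratios of 0.76 and 0.87 in the libraries labelled heart TIL and liver TIL had overlapping intervals. In cells with no T-cell UMI Ccr2 was 299 (231–381) against 262 (174–379) CPM in the library labelled liver TIL, no longer lower. It stayed lower in liver PC, at 144 (110–187) against 276 (212–352) CPM, with intervals apart. In the library labelled heart TIL it was 37.7 (10.3–96.5) against 131 (63.0–242) CPM, with overlapping intervals.

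At 2-fold, with at least 10 UMIs over both classes, 3 of 9 members were higher in C1q-high cells of the library labelled heart TIL (Ccl8, Ccl12, Ccl24) and 2 of 8 in that labelled liver TIL (Ccl8, Ccl12). The shares of all genes called higher there were 0.638% and 0.539%. In liver PC 4 of 9 were higher (Ccl7, Ccl8, Ccl12, Ccl24), where 0.686% of genes were. In kidney TIL 2 of 4 and in kidney PC 2 of 2 were higher (Ccl8 and Ccl12), where 9.21% and 10.4% of genes were. Fewer were called in both without T-cell UMIs. With 2 Csf1r UMIs no member was, and the log2 ratio of Ccl12 turned to -6.60 in kidney TIL and -0.054 in kidney PC. The median log2 ratio of the members with enough UMIs was 0.62, 0.33 and 0.60 in the libraries labelled heart TIL and liver TIL and in liver PC, against -0.04, -0.03 and -0.01 over all genes. No member was 2-fold lower in any of the 5, where 0.777%, 0.85%, 22%, 0.152% and 16.6% of genes were lower in the libraries labelled heart TIL and liver TIL, kidney TIL, liver PC and kidney PC. Members and contrast were chosen together, so nothing is read from these counts.

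**Figure D2:**
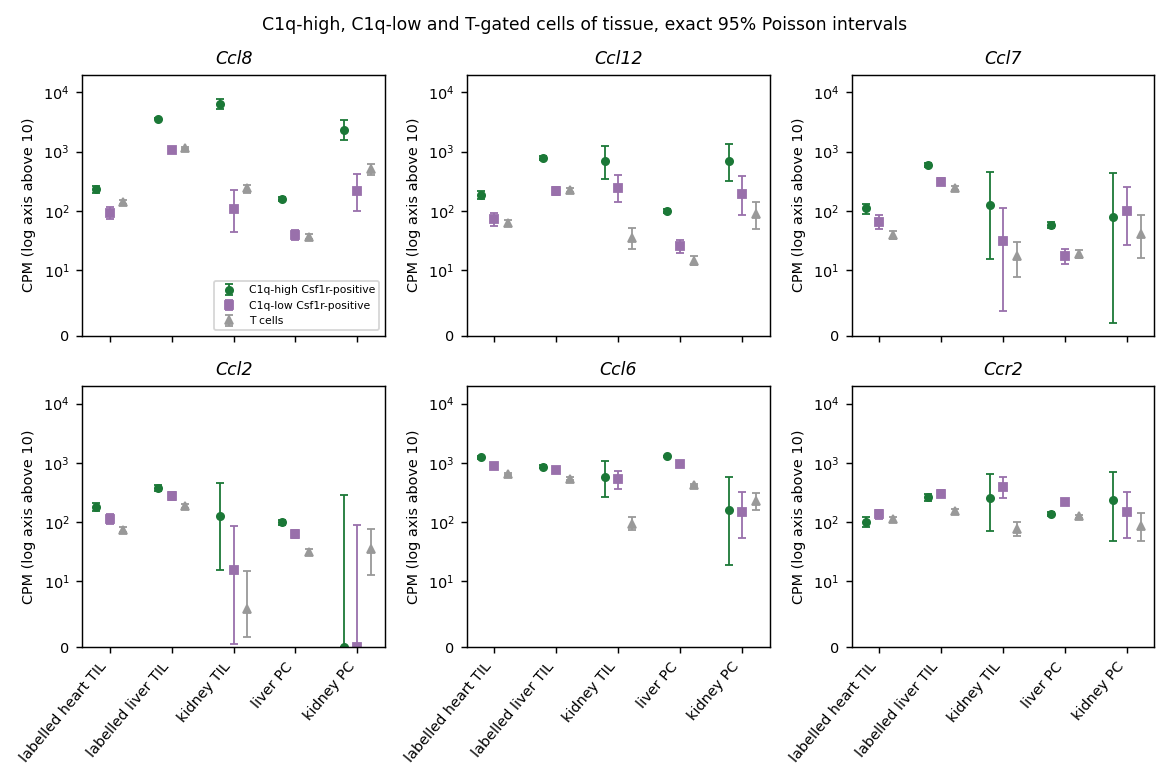
CPM (vertical axis, logarithmic above 10 CPM) of 6 members in C1q-high cells (green circles), C1q-low cells (purple squares) and T-gated cells (grey triangles) of the 5 tissue libraries, with exact 95% Poisson intervals. Ccl8 is highest in C1q-high cells of each library, and its T-gated level in the library labelled liver TIL, 1153 CPM, is close to its C1q-low level, 1076 CPM.

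T-gated cells of the same libraries carried these ligands too. Ccl8 was 1153 (1114–1194) CPM in T cells of the library labelled liver TIL and 139 (128–151), 239 (204–278), 36.7 (32.9–40.7) and 509 (408–627) CPM in those of the library labelled heart TIL, kidney TIL, liver PC and kidney PC. As a share of the C1q-high level this was 31.9%, 60.3%, 3.74%, 23.4% and 21.6%. Macrophage genes that no gate used also stood in T cells, Ms4a7 at 30.6%, 40.5% and 21.3% and Apoe at 37.1%, 47.2% and 23.8% in the libraries labelled liver TIL and heart TIL and in liver PC. Ccl12 stood at 28.7%, 33.7% and 14.5%, Ccl7 at 40.2%, 35.8% and 32.1%. Lyz2 was at 52.9%, 59.6% and 36.6%, and Adgre1 and Cd68 lay between 18.9% and 45.9%. Ccl6 was at 62.6%, 52.1% and 33.2% and Ccr1 at 53.5%, 54.4% and 35.1%. Ccr2 was at 59.2%, within the range of the members, in the library labelled liver TIL, and at 110.3% and 90.8%, above the other members, in that labelled heart TIL and in liver PC. The part of free RNA or of barcodes with more than 1 cell in these levels was not tested.

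A gate added after the data were seen kept cells with no UMI of a Cd3 or T-cell receptor constant gene. In its C1q-high cells every member stood above its level in all C1q-high cells of the library labelled liver TIL and of liver PC. Ccl24 in the former rested on 1 UMI, and some rises were small, such as Ccr2 at 144 against 138 CPM in liver PC. In the library labelled heart TIL only Ccl6, Ccl9, Ccl12, Ccl24 and Ccr1 stood above, and Ccl2, Ccl7, Ccl8 and Ccr2 stood below. Ccl8 was 66.0 against 231 CPM in that library, with intervals apart. Ccl8 was 4148 (3881–4427) CPM in the 195 such C1q-high cells of the library labelled liver TIL and 311 (259–371) CPM in 190 cells of liver PC. In the 365 T cells of the library labelled liver TIL with no C1q UMI it was 454 (387–529) CPM, and in 1157 such cells of liver PC 14.4 (9.59–20.9). Ccl12 was 1085 (951–1233) and 106 (74.9–145) CPM in these C1q-high and T cells of the library labelled liver TIL. In the library labelled heart TIL this gate left 96 C1q-high cells, and Ccl8 was at 66.0 (26.5–136) CPM there, against 78.9 (28.9–172) in C1q-low cells, so the C1q difference of Ccl8 in that library was lost. Ccl12 was at 236 (152–348) against 92.0 (37.0–189.6) CPM there, with overlapping intervals. The 748 T cells of that library with no C1q UMI held 55.3 (39.2–75.9) CPM of Ccl8, which overlapped its C1q-high interval.

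Depth differs between cells, so shares of cells with a UMI were taken after each cell was thinned at random to 500 UMIs. Among Csf1r-positive cells of the library labelled liver TIL, Ccl8 was detected in 29.1% (21.0–38.2) of 117 cells with no C1q UMI, 43.2% (38.1–48.4) of cells with 1 to 2, 47.7% (42.3–53.3) with 3 to 5 and 50.7% (43.7–57.7) of 209 with 6 or more, the ends being apart. In liver PC it was 2.14% (0.930–4.18) and 8.29% (4.71–13.3) at the ends, again apart, with 1.68% (0.678–3.43) and 2.95% (1.20–5.99) between. In the library labelled heart TIL the 4 shares were 2.26% (0.739–5.20), 5.87% (3.80–8.61), 8.42% (5.47–12.3) and 5.26% (2.30–10.1), so that the ends overlapped and the group with 3 to 5 UMIs was highest and apart from that with none. Only these 3 libraries had 20 cells in every group. Ccl12 went from 12.8% (7.36–20.3) to 25.4% (19.6–31.8) in the library labelled liver TIL, with overlapping intervals, and from 0.536% (0.0650–1.92) to 9.94% (6.0–15.3) in liver PC, with intervals apart.

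Ccr2 went the other way in 2 libraries, from 9.05% (5.62–13.6) to 1.97% (0.409–5.66) in the library labelled heart TIL and from 11.3% (8.24–14.9) to 4.97% (2.30–9.23) in liver PC. In the library labelled liver TIL it was 15.4% (9.38–23.2) and 12.0% (7.89–17.1). The end intervals of Ccr2 overlapped in each of the 3. Ccl6 was detected in 36.7% (31.8–41.8) and 42.5% (35.2–50.1) of liver PC cells at the ends and Ccl9 in 11.3% (8.24–14.9) and 13.3% (8.68–19.1). The same thinning gave T-gated cells 40.3% for Ccl8 in the library labelled liver TIL, 4.28% in that labelled heart TIL and 2.04% in liver PC. Median depth before thinning was 971, 1068 and 2208 UMIs in C1q-high cells and 793, 842 and 1491 in T cells of these libraries, and the shares of C1q-high cells with Ccl8 were 66.5%, 13.1% and 12.5% without thinning and 49.5%, 6.97% and 4.33% with it.

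**Figure D3:**
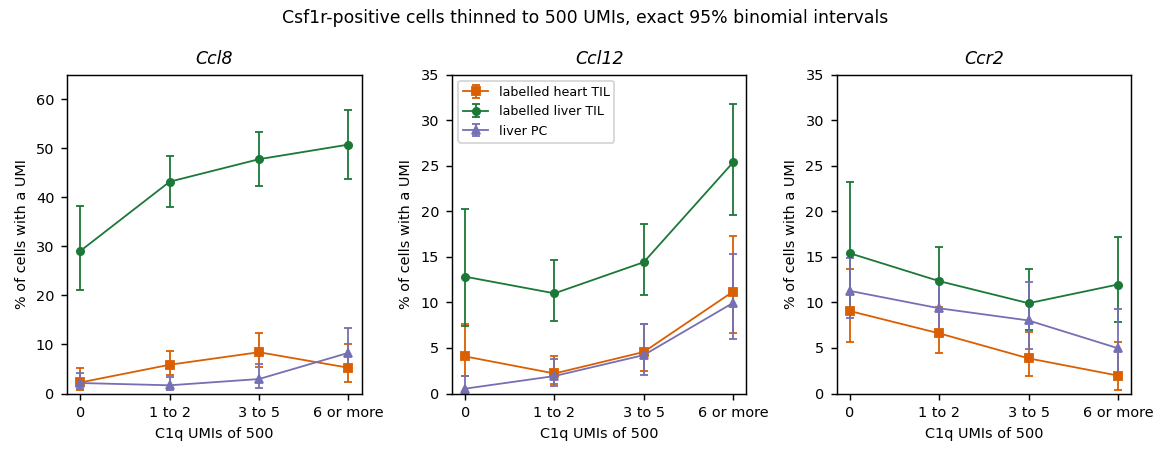
Percent of Csf1r-positive cells with a UMI (vertical axis) of Ccl8, Ccl12 and Ccr2 against their C1q UMIs, all cells thinned to 500 UMIs, for the 3 libraries with 20 cells in each group and with exact 95% binomial intervals. Ccl8 and Ccl12 are most often detected in the library labelled liver TIL at every C1q level.

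Kupffer genes were present in 2 libraries. Cells with a UMI of Clec4f, a lectin of Kupffer cells, or Cd5l numbered 752 in the library labelled heart TIL and 1060 in liver PC, 1 each in heart PBMC and the library labelled liver TIL, and 0 in the other 4. Many were mixed, since 317 and 441 of them passed the T gate and 162 and 452 held Csf1r. Ccl24 was 147 (123–176) CPM in this gate of the library labelled heart TIL and 100.5 (88.2–114) in that of liver PC. T cells there held 17.4 (13.7–21.8) and 7.86 (6.17–9.87) CPM.

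Ccl24 was higher the more Kupffer UMIs a cell held. In liver PC it was 8.29 (6.97–9.79) CPM in 8940 cells with none, 19.9 (13.9–27.7) in 836 with 1, 57.9 (28.9–104) in 85 with 2 and 423 (366–487) in 139 with 3 or more. In the library labelled heart TIL it was 15.0 (12.5–17.9), 41.3 (26.4–61.4), 321 (209.6–470.1) and 414 (325–519) CPM. The intervals of the 2 libraries overlapped at 3 or more UMIs. The scavenger receptor Marco and the complement receptor Vsig4, Kupffer genes that the gate did not use, stood at 2393 and 531 CPM there in liver PC and at 1084 and 369 in the library labelled heart TIL. Cd3e went from 148 to 23.8 CPM between the end groups of liver PC.

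Ccr2 went the other way over the same groups, from 155 (149–161) to 21.6 (10.4–39.7) CPM in liver PC and from 120.1 (113–128) to 50.3 (23.0–95.5) in the library labelled heart TIL. Ccl2, Ccl6, Ccl7, Ccl8 and Ccl12 were higher in cells with 3 or more Kupffer UMIs than in cells with none in both libraries. The cells with none were all other cells of the library, T cells included. Csf1r also went from 275 (267–283) to 639 (568–716) CPM in liver PC and from 221 (211–231) to 302 (227–394) in the library labelled heart TIL. Ccl6 went from 744 (731–757) to 2030.0 (1902–2164) CPM in liver PC and Ccl2 from 60.1 (56.5–64.0) to 140.4 (108–179). Ccl8 went from 71.4 (67.4–75.6) to 199 (160.2–244) there and from 164 (155–173) to 481 (384–594) in the library labelled heart TIL. All 5 had intervals apart between the end groups in both libraries, and Ccl9 and Ccr1 had overlapping ones. After thinning to 500 UMIs the shares of cells with a UMI were also apart between the ends for Ccl2, Ccl6, Ccl7, Ccl8 and Ccl24 in both libraries and for Ccl12 in that labelled heart TIL. Ccl12 in liver PC was detected in 1.66% (1.40–1.94) and 1.44% (0.175–5.10) of cells at the ends, so no difference was seen at equal depth, and Ccr2 was apart in liver PC only. Median depth there was 1482 and 2708 UMIs. The share of all genes with intervals apart between these end groups is not given here. Nothing is therefore read from the number of members apart. Against C1q-high cells of liver PC, cells with 3 or more Kupffer UMIs were not higher in Ccl12, at 77.7 (54.5–108) against 99.3 CPM. Ccl8 was 199 against 157 CPM, with overlapping intervals. Ccl6 and Ccl7 were higher, at 2030.0 and 153 against 1280 and 57.6 CPM, with intervals apart. Ccl2 was 140.4 (108–179) against 99.3 CPM, with overlapping intervals. In the library labelled heart TIL Ccl8 was higher, at 481 against 231 CPM, with intervals apart. Ccl12 was 285 (212–375) against 185 CPM in that library, with overlapping intervals.

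**Figure D4:**
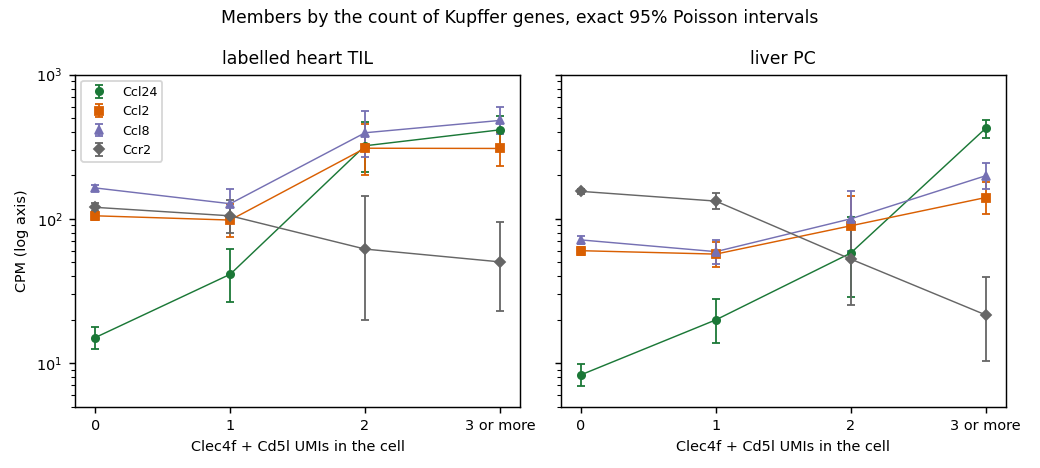
CPM (logarithmic vertical axis) of Ccl24, Ccl2, Ccl8 and Ccr2 against the number of Clec4f and Cd5l UMIs in a cell, for all cells of the library labelled heart TIL and of liver PC, with exact 95% Poisson intervals. At 3 or more UMIs Ccl24 reaches 414 and 423 CPM and Ccr2 is down at 50.3 and 21.6 CPM.

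Stromal cells held much Ccl2 and Ccl7. They were taken as cells with at least 3 of 10 fibroblast and mural genes (Col1a1, Col3a1, Dcn and others), no Csf1r and under 2 Cd3 UMIs, and numbered 171 in the library labelled liver TIL, 13 in liver PC, 12 in that labelled heart TIL and 2 in kidney TIL. Ccl2 was 2386 (1621–3387) CPM in the library labelled heart TIL, 1253 (891–1712) in liver PC and 847 (709–1003) in that labelled liver TIL, above the C1q-high level of the same library in each with intervals apart. It rested on 31, 39 and 133 UMIs. Ccl7 was 1038 (884–1209.8) CPM in the library labelled liver TIL, 514 (294–834) in liver PC and 385 (125–898) in that labelled heart TIL, above C1q-high cells with intervals apart in the first 2.

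Ccl8 and Ccl12 gave another picture in stroma. In the library labelled liver TIL Ccl8 was 1031 (879–1203) CPM and Ccl12 216 (149.9–302) CPM, below their C1q-high levels with intervals apart and overlapping their T-gated levels of 1153 and 223 CPM. Stromal cells of the library labelled heart TIL held 0 UMIs of Ccl8, which allows up to 231 CPM, while the 11 UMIs in those of liver PC made 353 (176–632) CPM, above the C1q-high level there. Ccl12 had 0 UMIs in both. Ccl6 was 388 (297–499) CPM in stroma of the library labelled liver TIL, below its T-gated 539.7 (513–568) CPM. The 12 macrophage markers summed to 7843 CPM in this stroma, 7128 in T cells and 22349 in C1q-high cells. After thinning, Ccl2 was detected in 23.4% (17.3–30.5) of stromal cells and 8.66% (7.66–9.74) of T cells of that library, and Ccl7 in 29.2% (22.5–36.7) and 11.1% (10.02–12.4).

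Endothelial cells, with at least 3 of 13 vessel genes, numbered 24, 19 and 9 in the libraries labelled heart TIL and liver TIL and in liver PC. Ccl2 was 1155 (597–2017) CPM in liver PC, 411 (177–809.6) in the library labelled liver TIL and 279.8 (103–609) in that labelled heart TIL, from 12, 8 and 6 UMIs. Only the first had an interval apart from the C1q-high value of its library. Its UMIs came from 3 of 9 cells. Ccl8 held 0 UMIs in endothelium of liver PC and of the library labelled heart TIL and 6 in that of the library labelled liver TIL. At 4 genes in place of 3 the stroma of the library labelled liver TIL had 106 cells, with 989 (807–1199) CPM of Ccl2 and 1114 (920.4–1336) of Ccl7. Ccl8 was then 797 (635–988), Ccl12 106 (52.7–189) and Ccl6 249.7 (163–366) CPM, all 3 below the T-gated intervals, so the overlap of Ccl8 and Ccl12 with T cells held for the gate of 3 genes alone.

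**Figure D5:**
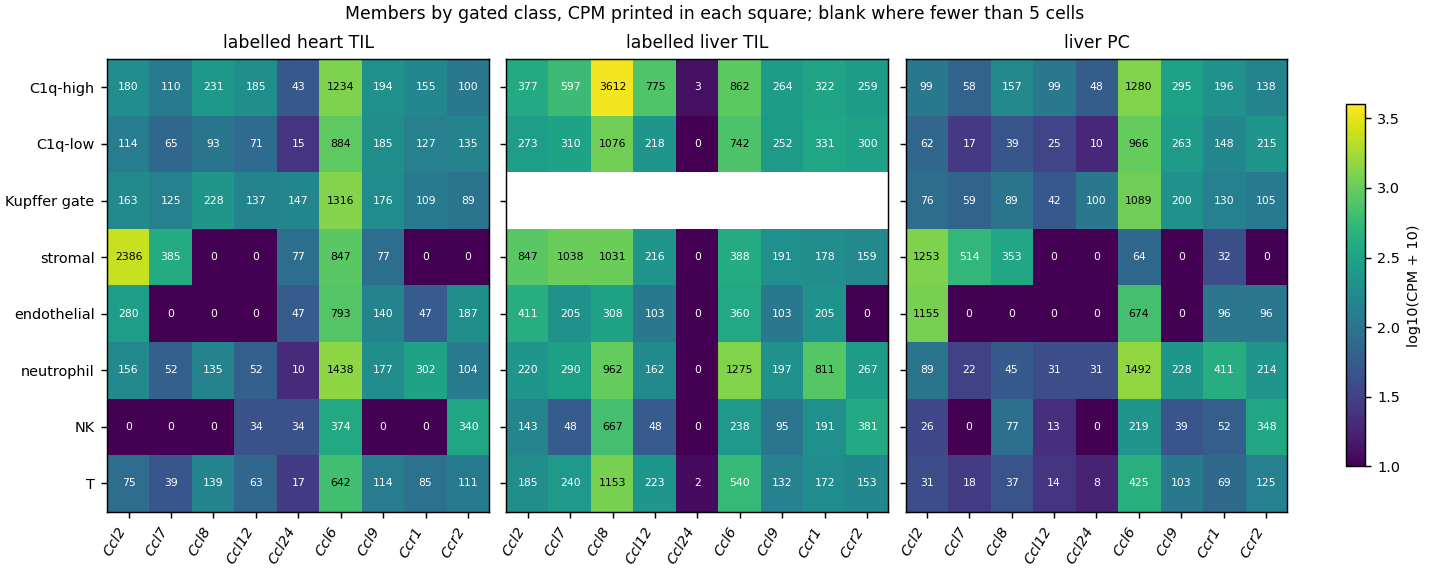
CPM (printed numbers, colour on a log10 scale after adding 10) of the 9 members in gated classes of the libraries labelled heart TIL and liver TIL and of liver PC. Down each column, Ccl2 is highest in stroma of all 3 panels and Ccl24 in the Kupffer gate of the 2 panels that have one.

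Neutrophils and lymphocytes carried Ccl6 and the receptors. In blood neutrophils, with at least 2 of 6 neutrophil genes and no Csf1r or Cd3, Ccl6 was 4702 (4632–4773) CPM in heart, 3365 (3297–3435) in liver and 2588 (2313–2887) in kidney PBMC. B cells held 3467 (3265–3678) and 2522 (2379.8–2669.6) CPM in heart and liver PBMC, and T cells 2801 (2672–2935), 1460.0 (1316–1615) and 409 (351–474). T cells of blood also held 130017, 57953 and 20583 CPM of the 8 neutrophil markers, in the same order as their Ccl6. In blood the Csf1r-positive level of Ccl6 was below the neutrophil level in each library, with intervals apart. The part of neutrophil RNA in the blood levels of Ccl6 and Ccr1 was not tested.

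Ccr1 was 659.7 (634–687), 503 (477–530.5) and 458 (347–594) CPM in neutrophils of heart, liver and kidney PBMC. In tissue neutrophils it was 811 (633–1025) CPM in the library labelled liver TIL, 411 (331–504) in liver PC and 302 (202–434) in that labelled heart TIL, each above C1q-high cells of the same library with intervals apart. Ccr2 was 271 (155–439.6), 407 (294–548) and 352 (252–479.8) CPM in natural killer cells (2 or more UMIs of Ncr1, Klrb1c, Klra8 and Klre1, no Cd3) of heart, liver and kidney PBMC. In tissue these cells held 381 (165–751) CPM in the library labelled liver TIL, 348 (229–507) in liver PC and 339.6 (163–625) in that labelled heart TIL, above the T-gated level with intervals apart in the last 2. B cells of heart PBMC held 37.9 (19.6–66.2) CPM of Ccr2 and those of liver PBMC 301 (253–355).

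Within C1q-high cells Ccl7 was detected more often beside Ccl12 or Ccl2 than without them in the library labelled liver TIL. After thinning, Ccl7 was detected in 29.9% (23.2–37.3) of the 174 cells with Ccl12 and in 16.3% (13.6–19.3) of the 663 without. Ccl7 was also detected in 30.6% (22.9–39.1) of cells with Ccl2 and 16.9% (14.2–19.9) of those without. Ccl8 did not follow, being detected in 52.9% (45.2–60.5) of cells with Ccl12 and 48.6% (44.7–52.4) of those without. In liver PC Ccl6 was detected in 50.8% (43.4–58.2) of cells with Ccl9 and 38.6% (36.2–41.1) of those without. The other pairs with intervals apart were Ccl2 and Ccr1 in liver PC and Ccl7 and Ccl2 in the library labelled heart TIL. Of 200 ordered pairs with at least 20 positive cells, 9 had intervals apart, and no pair in the kidney libraries had that many cells. Cells are not replicates, and a barcode with more than 1 cell can hold both genes.

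Over 39 sums of a class in a library with at least 20 cells and 20000 UMIs, the patterns of 3 members were nearest to each other. The Pearson correlation of log2(CPM + 10) was 0.92 between Ccl7 and Ccl12, 0.92 between Ccl7 and Ccl8 and 0.92 between Ccl8 and Ccl12, the highest of 10817 genes for each of the 3, and the third gene for each was Sectm1a at 0.88 to 0.91. Ccl24 was nearest to Cd5l at 0.97, a gene of the Kupffer gate, then Marco at 0.91 and Clec1b at 0.90. Ccl2 was nearest to Cstb at 0.88, Ms4a7 at 0.86 and Arg1 at 0.85. Ccl6 was nearest to AB124611 at 0.93, Msrb1 at 0.92 and Tpd52 at 0.92, Ccl9 to Naaa at 0.86, Evi2a at 0.84 and Aldh3b1 at 0.80. Ccr1 was nearest to Irf1 at 0.92, Cd300lf at 0.90 and Slfn4 at 0.89. Ccr2 had no near neighbour, its 3 being Cdc42 at 0.73, Bbc3 at 0.61 and Ahnak at 0.60. Sums of 1 library share its depth and its mixed cells, so these are descriptions.

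Of 14 other CC chemokines, 11 had a UMI in some library and 6 passed 10 UMIs in Csf1r-positive cells. All 5 tissue libraries lay above blood for 2 of the 6, Ccl1 and Ccl3, and below for 0. Ccl3, a ligand of Ccr1, was 561 CPM in liver PC, 562 in the library labelled heart TIL and 441 in that labelled liver TIL. T cells of these libraries held more, 1050.1, 812 and 622 CPM, whereas for Ccl8 they held less than the Csf1r-positive cells. In the library labelled heart TIL the 2 intervals of Ccl8 overlapped. None of the 2 to 6 other chemokines tested in a library was 2-fold higher or lower in C1q-high than in C1q-low cells of any of the 5.

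Of 14 other CC, CX3C and atypical receptors, 8 passed the UMI filter in Csf1r-positive cells and none lay above or below blood in all 5 tissue libraries. Ccr8, on which mouse Ccl8 acts, was near 0, with 7 UMIs or 0.744 (0.299–1.53) CPM in T cells of liver PC. Ccr3, the receptor of Ccl24, had 22 UMIs or 2.34 (1.46–3.54) CPM in the same cells and 8 UMIs in the Csf1r-positive cells. Csf1r-positive cells of blood held 1, 2 and 5 UMIs of Ccr3 in heart, liver and kidney PBMC, the last making 109 (35.3–254) CPM, against 0 UMIs in both kidney graft libraries, which allows up to 37.3 and 55.8 CPM, and 1.78 CPM or less in the other 3. Ccrl2, an atypical receptor, was the 1 of up to 5 receptors tested in a library that was 2-fold lower in C1q-high cells, in the library labelled heart TIL, at 109 (88.9–132) against 256 (224–291) CPM, and none was 2-fold higher.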

How the data were processed

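The authors made the tables with STAR on GRCm38 and a GENCODE annotation, dropped reads with several alignments and merged near-identical UMIs with Drop-seq tools. The deposited values are whole UMI counts for each gene in each barcode, not normalized, and a gene not listed in a table had no UMI. Multiplets and free RNA were not removed. Library totals were 3418722 to 19171264 UMIs, the depth that sets the Poisson and binomial intervals, which cover counting error only.

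Groups came from the labels. Members, gates and lists were chosen with earlier results of these data known. Barcodes past the floor of 500 UMIs, with 10% or less from mitochondrial genes, were gated on marker UMIs, and their counts were summed and scaled to CPM. Where a count was 0, 3 UMIs set the limit. Shares were taken after thinning to 500 UMIs (seed 0). Ratios added 10 CPM and needed 10 UMIs. No doublet caller was run, and the alternative without a second lineage stands in for it. Genes named are the members, 2 lists of other CC chemokines and receptors, markers, and for each member the 3 with the highest correlation. The Poisson intervals were tested on simulated counts, and so was the ratio rule, at the depth of liver PC and with changes larger than 2-fold. Thinning was checked on cells of liver PC. The depth of the kidney libraries was not simulated. Alternatives were other floors, gates, pseudocounts and scalings, and the exclusion of shared barcodes. The gate without T-cell UMIs and the Kupffer gate at 3 UMIs were chosen after seeing the data. Python 3.11.15, numpy 2.4.6, scipy 1.17.1, pandas 2.3.3, Biopython 1.88 and matplotlib 3.10.9 were used. Whole heart tissue was not analysed here.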

Additional observations from a re-analysis of the deposited data

Results flagged for a closer look

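The comparisons left out 32458 barcodes with fewer than 500 UMIs, found in all libraries but liver PC, and every member had UMIs there. Over these barcodes Ccl6 held 16661 UMIs, Ccl8 3764, Ccr1 2368, Ccr2 1636, Ccl9 1003, Ccl12 930, Ccl7 294, Ccl2 268 and Ccl24 6. Ccl8 stood at 1680.0 CPM in those of the library labelled liver TIL, 734 in kidney PC, 444 in kidney TIL and 109 in the library labelled heart TIL, and at 0 in heart and liver PBMC, which is the order of its Csf1r-positive levels except that the kidney libraries changed places. Ccl6 stood at 4634, 3304 and 2689 CPM in those of heart, liver and kidney PBMC, beside 4702, 3365 and 2588 in their neutrophils. What these barcodes are was not tested.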

How the results depend on the processing

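Members called 2-fold higher in C1q-high cells numbered 3, 2, 2, 4 and 2 in the libraries labelled heart TIL and liver TIL, kidney TIL, liver PC and kidney PC. Of all genes, 0.638%, 0.539%, 9.21%, 0.686% and 10.4% were called higher there. Without T-cell UMIs 1 member was called in the library labelled heart TIL, 1 in kidney TIL and 0 in kidney PC. With 2 Csf1r UMIs there were 0 in kidney TIL and 0 in kidney PC, with a floor of 1000 UMIs 0 in kidney TIL, where it left 1 C1q-high cell, and without a filter 6 in kidney TIL. Those 6 include Ccl2 with 2 UMIs against 1 and Ccl9 with 3 against 4. Shares of all genes under the alternatives are not given here, so nothing is read from these counts. Counts of the libraries labelled liver TIL and of liver PC stayed within 1.5 times under every alternative. Of the 3 members above blood in all tissue libraries and the 1 below, a floor of 1000 UMIs left 0 and 0, with 3 cells of kidney PC remaining. With 2 Csf1r UMIs 2 and 0 were left, and the gate without T-cell UMIs left 2 and 1, Ccl7 no longer being above. Shares of all genes are not given for these alternatives either, so nothing is read from these counts. Of the log2 ratios of C1q-high over C1q-low, 40 of 486 values under an alternative had the other sign, 21 of them in the kidney libraries and 8 without T-cell UMIs. The 6 that had been past 2-fold turned to -0.23 for Ccl8 in the library labelled heart TIL without T-cell UMIs, -4.33 for Ccl9 and -6.60 for Ccl12 in kidney TIL and -0.054 for Ccl12 in kidney PC with 2 Csf1r UMIs, -0.049 for Ccl9 in kidney TIL without shared barcodes, and 1.33 for Ccl9 in kidney PC with C1q-high at 3 UMIs. The cause was not tested.

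With the labels of the libraries labelled heart TIL and liver TIL exchanged, the log2 ratio of liver to heart TIL turned to -1.13 for Ccl2, -2.33 for Ccl7, -3.90 for Ccl8, -2.00 for Ccl12, 1.75 for Ccl24, -1.14 for Ccr1 and -1.17 for Ccr2. An exchange of labels changes the sign of every such ratio by construction, those of Ccl6 and Ccl9 included. No organ is read from these 2 libraries, because organ genes ran against their labels. 5 members were highest in the library labelled liver TIL among tissue libraries, and 4 to 6 under the alternatives. The share of all genes for which this held is not given here, so nothing is read from this count. No paired analysis was done, since each group holds 1 library and no level was tested. PBMC, TIL and PC of an organ can share recipients, so the 5 tissue libraries need not be 5 independent grafts. Levels of members that left their interval numbered 140 of 261 without T-cell UMIs, 112 of 189 with 2 Csf1r UMIs, 109 of 288 with a floor of 1000 UMIs, 98 of 297 after thinning, 80 of 189 without a second lineage, 28 of 117 and 15 of 117 with C1q-high at 10 and 3 UMIs, 15 of 18 and 13 of 18 with the Kupffer gate at 3 UMIs or joined to C1q and Csf1r, 7 of 18 with stroma and endothelium at 4 genes and 13 of 297 without shared barcodes. Kidney libraries, with 20 and 22 C1q-high cells, limit what depth can show.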
